A study of Caenorhabditis elegans with 14 samples.

Results

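The large ATP-dependent chaperones of C. elegans examined here are 8 genes grouped by the compartment in which they work. hsp-1, hsp-70, hsp-90, and hsp-110 belong to the cytosol and nucleus, hsp-3 and hsp-4 to the endoplasmic reticulum (ER), and hsp-6 and hsp-60 to the mitochondria. Their array elements were taken by gene symbol alone, and the genes were chosen with earlier results of these data known. Each was represented by 1 array element, which gives 8 genes and 8 elements out of 18879 names and 22490 worm elements on the array. The coding sequences are F26D10.3 (hsp-1), C12C8.1 (hsp-70), C47E8.5 (hsp-90), C30C11.4 (hsp-110), C15H9.6 (hsp-3), F43E2.8 (hsp-4), C37H5.8 (hsp-6), and Y22D7AL.5 (hsp-60).

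Hsp70 proteins hold unfolded stretches of other proteins and release them on an ATP cycle, Hsp110 proteins exchange their nucleotide, Hsp90 proteins finish the folding of clients such as kinases and receptors, and Hsp60 encloses its clients in a barrel. Each compartment has its own set and its own stress response. HSF-1 induces the cytosolic set after heat, IRE-1 and XBP-1 induce the ER set, and ATFS-1 induces the mitochondrial set. In worms, loss of protein folding capacity in adulthood is a well-studied feature of aging.

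CB4856, a wild type strain from Hawaii, and N2, the laboratory wild type, were hybridized together on each of 14 arrays with 2 dyes. Hermaphrodites of both strains were grown on bacteria at the same temperature and harvested as juvenile worms at 40 hr (t1, 5 arrays), reproductive worms at 96 hr (t2, 4 arrays), and old worms at 214 hr (t3, 5 arrays). The labels place t1 in the late L3 stage and the methods in late L4. The paper gives CB4856 a shorter mean lifespan than N2. Physiological age, the age at harvest divided by the mean lifespan of the strain, therefore differed at equal hours, and more so at older ages. Strain and physiological age cannot be told apart within an age. Worms of t2 and t3, but not of t1, had spent a period on FUDR, which blocks reproduction, so that age and FUDR cannot be told apart between t1 and the later ages. RNA came from whole worms, in which fewer cells of a type and less RNA per cell cannot be told apart.

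CB4856 carried Cy3 on 5 arrays (replicates 4 and 5 of an age) and Cy5 on the others. Neither the labels nor the methods say which arrays share worm cultures or RNA, so p-values measure the spread between arrays, which may be partly technical. The median spot intensity of a channel lay between 191 and 303 over a local background of 163 to 183, and 39.3% to 63% of elements exceeded background by 2 SD. Levels are normalized log2 intensities, which compare 1 gene across samples but not different genes with each other.

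**Figure D1:**
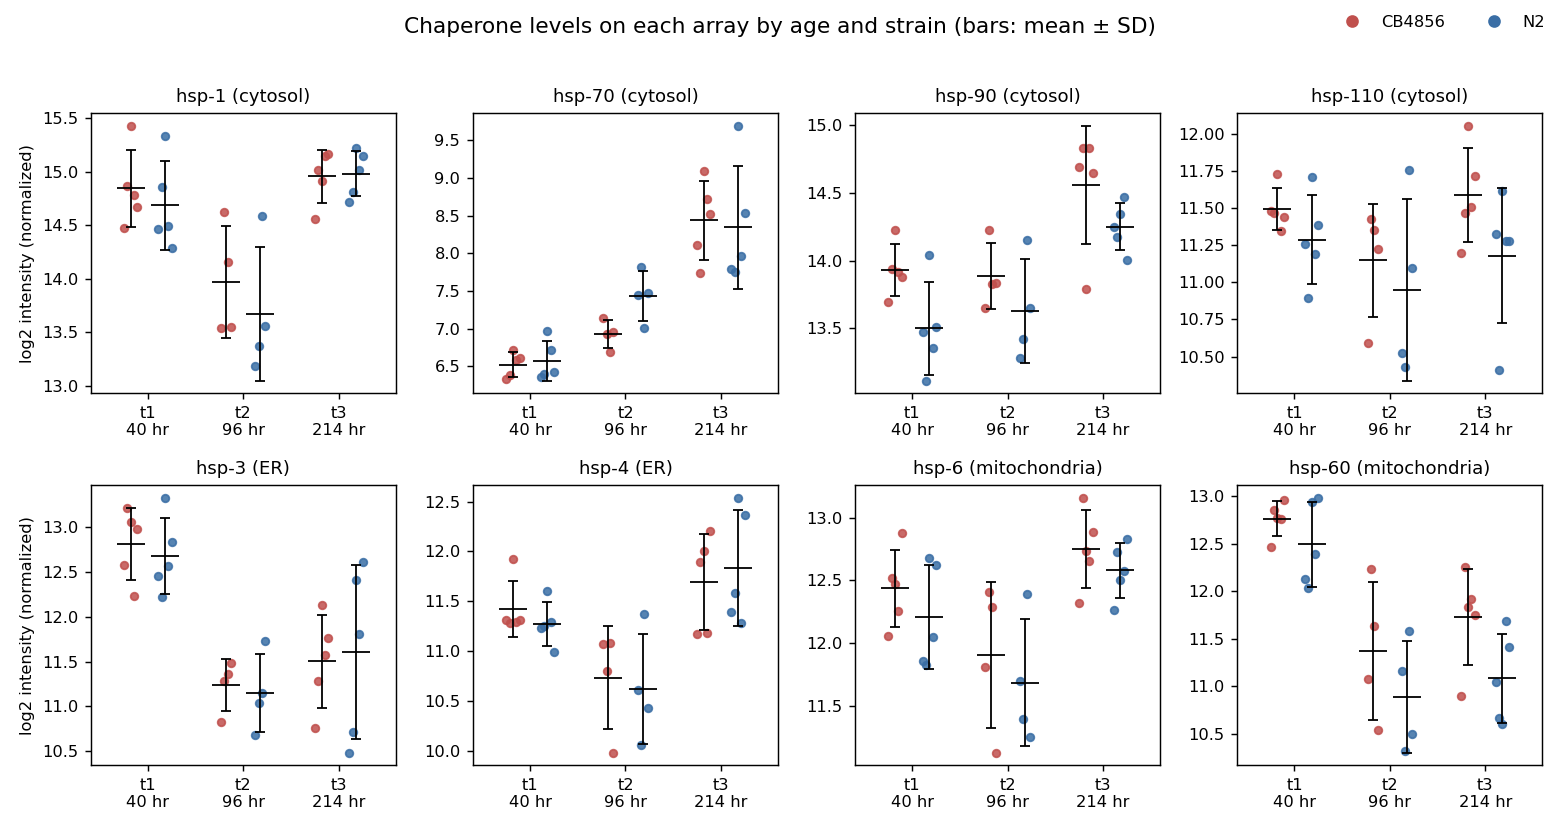
Normalized log2 intensity (vertical axis, a separate scale for each gene) of the 8 chaperone genes in CB4856 (red) and N2 (blue) at t1 (40 hr, 5 arrays), t2 (96 hr, 4 arrays), and t3 (214 hr, 5 arrays). Points are arrays and bars the mean ± SD. hsp-3 and hsp-60 are lower at t2 and t3 than at t1 in both strains, hsp-70 is highest at t3, and hsp-1, hsp-4, and hsp-6 are lowest at t2.

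With age, some of the 8 chaperones rose and others fell. From juvenile to reproductive worms, hsp-1, hsp-3, and hsp-60 fell, whereas none of the 8 was called higher. The log2 change of hsp-70 was 0.64 there and did not pass (adjusted p = 0.0857). From reproductive to old worms, hsp-1, hsp-70, hsp-90, hsp-4, and hsp-6 rose, and none fell. Over the whole interval hsp-70 and hsp-90 were higher in old than in juvenile worms, and hsp-3 and hsp-60 were lower. These calls are from limma on the mean log2 intensity of both strains on each array, at a Benjamini-Hochberg adjusted p under 0.05 over all 22490 elements. At t2 over t1, 3 of 8 were called lower and 0 higher, where 33.7% of all elements were called, 15.3% lower and 18.4% higher. At t3 over t2, 5 of 8 were called higher and 0 lower, where 19.7% of all elements were called, 9.42% higher and 10.3% lower. At t3 over t1, 2 of 8 were higher and 2 lower, where 43.5% of all elements were called, 23.9% higher and 19.6% lower. Counted in either direction, the calls at t2 over t1 and at t3 over t1 were near the shares of all elements, dim ones included. In a single channel, 39.3% to 63% of all elements exceeded background, whereas each chaperone except hsp-70 did so in every channel. With dim elements left out, 6079, 3924, and 7859 elements were called in the 3 comparisons, out of a smaller total. Shares among elements of like brightness were not computed, here or for the lists below. The median log2 change of the 8 genes was -0.60, 0.76, and 0.27 in these comparisons, and that of all elements 0.03, 0.01, and 0.00.

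hsp-1 encodes the constitutive cytosolic Hsp70 (Hsc70). Averaged over both strains, its log2 level was 14.47, 14.86, 15.38, 14.64, and 14.48 on the t1 arrays. It was 13.36, 14.00, 14.37, and 13.55 on the t2 arrays and 14.64, 14.91, 15.06, 15.08, and 15.15 on the t3 arrays. Every t2 array lay below every array of the other ages, while t1 and t3 overlapped. hsp-1 was 1.92-fold lower at t2 than at t1 (log2 -0.94, standard error 0.22, adjusted p = 0.00448) and 2.22-fold higher at t3 than at t2 (log2 1.15, standard error 0.22, adjusted p = 0.00297). Between t3 and t1 the log2 difference was 0.21 (95% interval -0.25 to 0.66). Juvenile and reproductive worms were present in each of the 4 scan sessions, and old worms in 3 of these. Within sessions, t2 was lower than t1 in 4 of 4 (log2 -1.28 to -0.67) and t3 higher than t2 in 3 of 3 (log2 0.74 to 1.08). Saturated pixels were present in the hsp-1 spot of 1 t1 array and of 3 t3 arrays, in up to 49.3% of its pixels. Without those spots, a setting chosen after seeing the data, the log2 changes were -0.79 (adjusted p = 0.0206) and 1.03 (adjusted p = 0.0268). Without normalization between arrays the t2 over t1 change was -1.11 (adjusted p = 0.0659).

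hsp-70 (C12C8.1) is a stress-inducible cytosolic Hsp70, and its spots were the only ones of the 8 near background. It exceeded background on 1 of 5 arrays in CB4856 and 2 of 5 in N2 for juvenile worms, on 1 of 4 in CB4856 and 4 of 4 in N2 for reproductive worms, and on all 5 in both strains for old worms. The raw mean intensity was 187 to 234 in CB4856 and 197 to 285 in N2 at t1, and 193 to 225 in CB4856 and 234 to 414 in N2 at t2. At t3 it was 307 to 1081 in CB4856 and 321 to 1496 in N2. All t3 spots in CB4856 were brighter than all of its t1 and t2 spots, whereas in N2 the t2 and t3 ranges overlapped on this raw scale.

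The normalized level of hsp-70, averaged over both strains, was 6.34, 6.39, 6.84, 6.65, and 6.52 at t1. At t2 it was 7.30, 7.38, 6.85, and 7.21, and at t3 it was 7.95, 7.75, 9.39, 8.34, and 8.53. The 3 ages did not overlap on this scale, and t3 replicate 3 was the brightest array. hsp-70 was 3.59-fold higher at t3 than at t1 (log2 1.84, standard error 0.25, adjusted p = 4.72e-05) and 2.31-fold higher at t3 than at t2 (log2 1.21, standard error 0.27, adjusted p = 0.00645). Since many t1 and t2 channels were not above background, the size of both depends on the background correction. Over 26 recomputed settings of all kinds, the log2 change was 1.13 to 2.34 at t3 over t1 and 0.78 to 1.97 at t3 over t2. Both were called in each setting. With a normexp offset of 16 in place of 50, the t2 over t1 change was 0.89 (adjusted p = 0.0345). With the offset of 50 it was 0.64 (adjusted p = 0.0857) and did not pass. Without t3 replicate 3 it was 0.62 with an adjusted p of 0.011. Within each of the 3 sessions t3 was higher than t2, by 0.67 to 2.11.

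hsp-90 (also named daf-21) encodes the cytosolic Hsp90. Its log2 level over both strains was 13.58, 13.52, 14.14, 13.64, and 13.69 at t1 and 13.47, 13.82, 13.99, and 13.74 at t2. The t3 arrays gave 14.47, 14.50, 14.07, 14.65, and 14.33. The first 2 ages overlapped throughout, and all t3 arrays lay above all t2 arrays. The t1 and t3 arrays overlapped, with t3 replicate 3 (14.07) below t1 replicate 3 (14.14). hsp-90 was 1.57-fold higher at t3 than at t2 (log2 0.65, standard error 0.15, adjusted p = 0.00811) and 1.61-fold higher than at t1 (log2 0.69, standard error 0.14, adjusted p = 0.00119). The log2 change at t2 over t1 was 0.04 (95% interval -0.28 to 0.36). Saturated pixels were present on 2 of 5 t3 arrays in CB4856 and 1 of 5 in N2, and without those spots the changes were 0.53 (adjusted p = 0.045) and 0.58 (adjusted p = 0.012). Within sessions t3 was higher than t2 in 3 of 3, by 0.21 to 0.75, and higher than t1 in 3 of 3, by 0.06 to 0.97. With arrays of the same label number averaged, the t3 over t2 change was 0.54 (adjusted p = 0.12) and the t3 over t1 change 0.56 (adjusted p = 0.0515). Without normalization between arrays they were 0.99 (adjusted p = 0.054) and 0.84 (adjusted p = 0.0699).

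hsp-110 encodes the cytosolic Hsp110, which serves Hsp70 as a nucleotide exchange factor. Its level was 11.39 ± 0.21 at t1, 11.05 ± 0.42 at t2, and 11.39 ± 0.33 at t3 (mean ± SD of log2 over 5, 4, and 5 arrays). The ages overlapped and no change passed, with log2 values of -0.34 at t2 over t1 (adjusted p = 0.241), 0.33 at t3 over t2 (adjusted p = 0.294), and -0.01 at t3 over t1 (adjusted p = 0.987). With the scan session as a block the first change was -0.36 with an adjusted p of 0.0463.

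hsp-3 and hsp-4 encode the 2 BiP proteins of the ER, Hsp70 relatives that bind proteins entering the secretory pathway. hsp-3 is mainly constitutive and hsp-4 strongly induced by the unfolded protein response. The log2 level of hsp-3 over both strains was 12.52, 12.72, 13.19, 12.40, and 12.91 at t1 and 10.75, 11.16, 11.25, and 11.61 at t2. At t3 it was 10.62, 10.996, 12.27, 11.69, and 12.18. All t2 and t3 arrays lay below all t1 arrays, and t3 spread the widest of the 3 ages. hsp-3 was 2.93-fold lower at t2 than at t1 (log2 -1.55, standard error 0.32, adjusted p = 0.00183) and 2.29-fold lower at t3 than at t1 (log2 -1.19, standard error 0.30, adjusted p = 0.00542). Without normalization between arrays, which moved the median of all elements at t3 over t1 to 0.11, the t3 over t1 change was -0.56 (adjusted p = 0.398). Within sessions t2 was lower than t1 in 4 of 4 (log2 -1.94 to -0.91) and t3 lower than t1 in 3 of 3 (-1.90 to -0.96). The change at t3 over t2 was 0.36 (95% interval -0.33 to 1.05).

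The log2 level of hsp-4 was 11.27, 11.27, 11.76, 11.29, and 11.15 at t1 and 10.84, 10.43, 11.23, and 10.21 at t2. The t3 arrays gave 11.28, 11.74, 12.27, 11.23, and 12.29. The t3 arrays all lay above the t2 arrays, although t3 replicate 4 and t2 replicate 3 were nearly equal. hsp-4 was 2.12-fold higher at t3 than at t2 (log2 1.09, standard error 0.26, adjusted p = 0.0104), and within sessions t3 was higher by 1.05 to 1.08 in 3 of 3. The change at t2 over t1 was -0.67 (adjusted p = 0.0642), without t2 replicate 3 it was -0.86 (adjusted p = 0.0259), and with the scan session as a block it was -0.71 (adjusted p = 0.00119). With arrays of the same label number averaged, the t3 over t2 change was 1.12 (adjusted p = 0.0607). At t3 over t1 it was 0.41 (95% interval -0.12 to 0.94).

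hsp-6 encodes the mitochondrial Hsp70 (mortalin) and hsp-60 the mitochondrial chaperonin, the pair commonly used to report the mitochondrial unfolded protein response. The log2 level of hsp-60 was 12.298, 12.44, 12.86, 12.58, and 12.97 at t1 and 11.12, 11.28, 11.61, and 10.52 at t2. At t3 it was 10.97, 11.46, 11.22, 11.80, and 11.58. All t2 and t3 arrays lay below all t1 arrays, and t2 and t3 overlapped. hsp-60 was 2.83-fold lower at t2 than at t1 (log2 -1.50, standard error 0.22, adjusted p = 0.000146) and 2.33-fold lower at t3 than at t1 (log2 -1.22, standard error 0.21, adjusted p = 0.000323). Within sessions t2 was lower than t1 in 4 of 4 (-1.78 to -1.25) and t3 lower than t1 in 3 of 3 (-1.45 to -1.08). Without normalization between arrays the change at t3 over t1 was -0.55 (adjusted p = 0.422). At t3 over t2 the change was 0.28 (95% interval -0.20 to 0.76).

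The log2 level of hsp-6 was 11.96, 12.17, 12.57, 12.15, and 12.75 at t1 and 11.76, 11.90, 12.34, and 11.19 at t2. At t3 it was 12.29, 12.94, 12.62, 12.61, and 12.86. Neighboring ages overlapped on single arrays. hsp-6 was 1.83-fold higher at t3 than at t2 (log2 0.87, standard error 0.22, adjusted p = 0.0152), and within sessions t3 was higher by 0.40 to 1.11 in 3 of 3. The change at t2 over t1 was -0.53 (adjusted p = 0.0902), without t2 replicate 3 it was -0.71 (adjusted p = 0.0246), and with the scan session as a block it also passed (adjusted p = 0.0259). With arrays of the same label number averaged, the t3 over t2 change was 0.75 (adjusted p = 0.0887). At t3 over t1 it was 0.34 (95% interval -0.11 to 0.80).

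**Figure D2:**
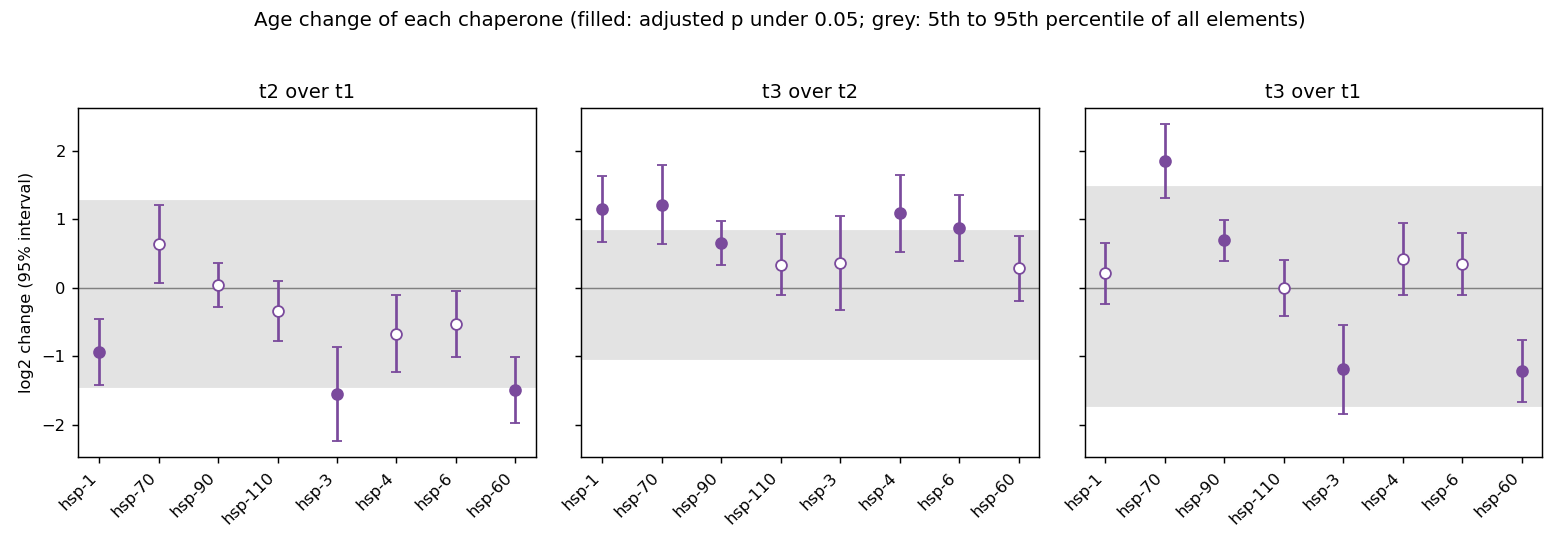
Log2 change (vertical axis, with its 95% interval) of each chaperone at t2 over t1, t3 over t2, and t3 over t1 from limma, over all 14 arrays. Filled points have an adjusted p under 0.05, and grey spans the 5th to 95th percentile of all 22490 elements. The t3 over t2 changes lie above 0 for all 8 genes, 5 of them filled, whereas at t2 over t1 the filled points are hsp-1, hsp-3, and hsp-60, all below 0.

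Pairs of chaperones from each compartment were also set beside each other. The pairs were chosen after their changes were seen, so their values are given as a description with no test. In the mitochondria, the change of hsp-6 lay above that of hsp-60 in each comparison of ages. The difference of their log2 values on the same array, hsp-6 minus hsp-60, was 0.97 larger at t2 than at t1 (SD between arrays 0.05 at t2 and 0.08 at t1), 0.59 larger at t3 than at t2, and 1.56 larger at t3 than at t1. No array of one age overlapped another. In the ER, hsp-4 minus hsp-3 was 0.88 larger at t2 than at t1, 0.73 larger at t3 than at t2, and 1.61 larger at t3 than at t1, where the ages did not overlap. In the cytosol, hsp-70 minus hsp-1 was 1.58 larger at t2 than at t1 and 1.64 larger at t3 than at t1, without overlap, and 0.06 larger at t3 than at t2. The cytosolic difference depends on the background correction through hsp-70, which exceeded background in 3 of 10 channels at t1.

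**Figure D3:**
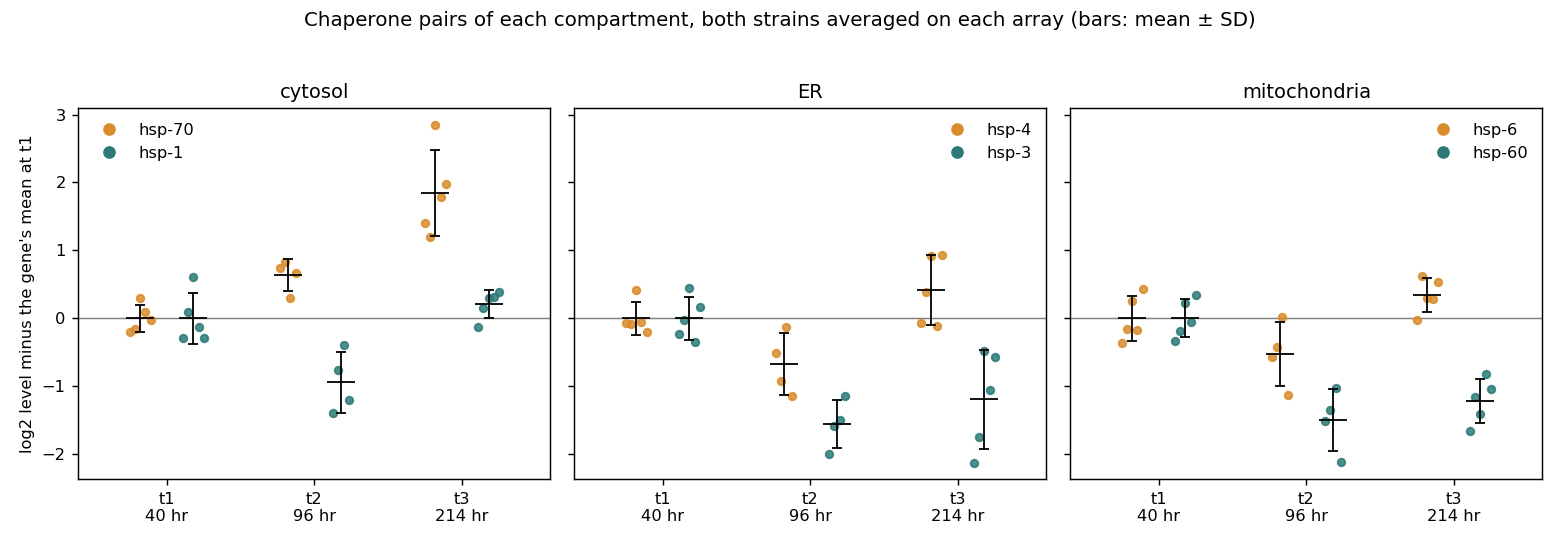
Log2 level of each gene on each array, averaged over both strains, minus the mean of that gene at t1 (vertical axis), at t1, t2, and t3 for the pairs hsp-70 and hsp-1 (cytosol), hsp-4 and hsp-3 (ER), and hsp-6 and hsp-60 (mitochondria). Points are arrays (5, 4, and 5) and bars the mean ± SD. At t3, hsp-6 lies around its t1 level and hsp-60 stays below it on all 5 arrays, as does hsp-3.

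Between the strains, no chaperone was called at any age. Strain differences were tested with limma on the log2 ratio of CB4856 over N2 on each array, with a dye term. Of 8 genes, 0 were called at t1, t2, or t3, where 2.65%, 2.64%, and 3.42% of all elements were called (1%, 1.08%, and 1.57% higher in CB4856 and 1.65%, 1.56%, and 1.85% lower). Unadjusted p-values under 0.05 were found for 1, 1, and 2 of the 8, and the single-channel linear model of the methods, at its own threshold of 0.01, called 0 at each age. The 24 log2 ratios lay between -0.45 (hsp-70 at t2) and 0.61 (hsp-60 at t3), and the ratio was above 0 for 7 of the 8 genes at t1, 6 at t2, and 5 at t3. Without t2 replicate 2 it was above 0 for 2 of the 8 at t2, and without t3 replicate 4 for 4 at t3. Probe sequences follow N2, and neither their binding of CB4856 transcripts nor cross-binding of related Hsp70 genes was tested here. The paper, citing earlier work, calls the effect of strain sequence differences on hybridization low for these arrays.

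hsp-90 had the lowest unadjusted p of the 8 genes at t1. Its log2 ratio was 0.22, 0.83, 0.18, 0.56, and 0.38 on the t1 arrays, higher in CB4856 on 5 of 5, and 0.37, 0.81, -0.33, and 0.18 on the t2 arrays. On the t3 arrays it was 0.44, 0.66, -0.55, 0.37, and 0.64. The fitted ratio was 0.45 at t1 (95% interval 0.06 to 0.83, adjusted p = 0.29), 0.29 at t2 (-0.16 to 0.73, adjusted p = 0.581), and 0.32 at t3 (-0.06 to 0.71, adjusted p = 0.45). Without t3 replicate 3 the t3 ratio was 0.53 (adjusted p = 0.0877), and without spots with saturated pixels it was 0.21 (adjusted p = 0.808).

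The ratio of hsp-60 had the widest spread of the 8 genes at t2 and t3 (SD 0.958 and 0.733), though not at t1, where that of hsp-3 was wider (SD 0.534, against 0.385 for hsp-60). For hsp-60 the log2 ratio was -0.08, 1.92, 0.05, and 0.04 on the t2 arrays and -0.15, 1.59, 1.24, 0.23, and 0.34 on the t3 arrays. The large values came from 1 array at t2 and 2 arrays at t3, and the remainder were closer to 0. The fitted ratio was 0.38 at t2 (95% interval -0.32 to 1.07, adjusted p = 0.651), which became -0.04 without t2 replicate 2. At t3 it was 0.61 (0.00 to 1.21, adjusted p = 0.332). Of the 8 genes, 7 had their highest CB4856 over N2 ratio at t2 on t2 replicate 2, and 7 had their highest ratio at t3 on t3 replicate 2. Both arrays carried CB4856 in Cy5 and belonged to the same scan session, as did t1 replicate 2, which was highest for 5 genes. In that session too, but with CB4856 in Cy3, were t1 replicate 5, highest for 3 genes, and t3 replicate 4, highest for 1. The 8 genes share these arrays, and such counts were not taken over all elements. With the session as a block, 0 of 8 genes were called at each age.

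For hsp-70 the ratio was -0.31, -0.89, -0.32, and -0.52 on the t2 arrays, lower in CB4856 on 4 of 4, with CB4856 above background on 1 of them. The fitted ratio at t2 was -0.45 (95% interval -0.81 to -0.10, adjusted p = 0.212). It was -0.03 at t1 (-0.34 to 0.28) and 0.11 at t3 (-0.20 to 0.42). For hsp-110 the ratio on the t3 arrays was -0.13, 1.06, 0.44, 0.23, and 0.44, with a fitted value of 0.40 (95% interval 0.01 to 0.78, adjusted p = 0.32). For hsp-1 the ratios were 0.17, 0.31, and -0.02, for hsp-3 0.08, -0.04, and -0.16, for hsp-4 0.13, 0.07, and -0.16, and for hsp-6 0.21, 0.18, and 0.15 at t1, t2, and t3. Single arrays of these genes ranged from -0.85 (hsp-3 on t3 replicate 5) to 1.24 (hsp-1 on t2 replicate 2). The bound of a 95% interval farthest from 0 among them was 0.75, for hsp-1 at t2.

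**Figure D4:**
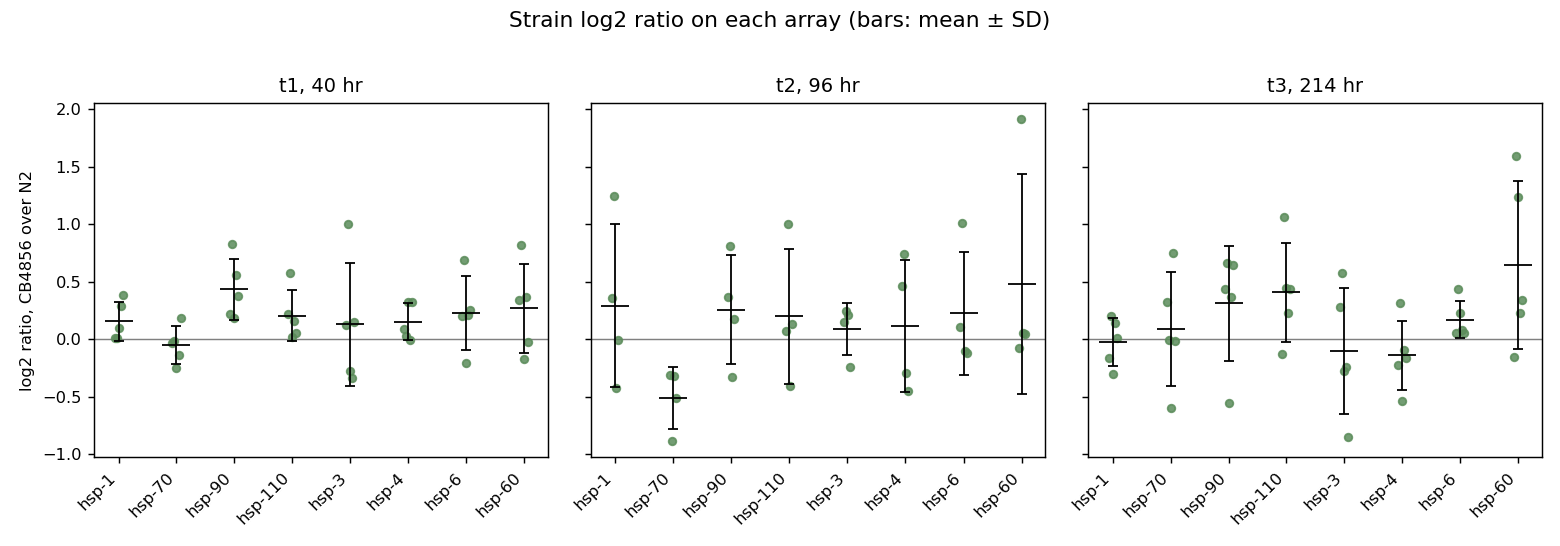
Log2 ratio of CB4856 over N2 (vertical axis, 0 means equal) of the 8 chaperone genes on each array at t1, t2, and t3. Points are arrays (5, 4, and 5) and bars the mean ± SD. Most points scatter around 0, hsp-90 is above 0 on all 5 t1 arrays, and hsp-60 reaches 1.92 on 1 t2 array.

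The age changes of the strains were also set against each other. No chaperone was called for a strain difference that changed from t1 to t2 or from t2 to t3 (0 of 8 in each), where 0.734% (0.373% upward and 0.36% downward) and 0.187% (0.12% upward and 0.0667% downward) of all elements were called, and unadjusted p-values under 0.05 were found for 0 and 1 of the 8. hsp-70 was that gene. Its log2 change at t3 over t2 was 1.51 in CB4856 and 0.91 in N2, a fitted difference of 0.57 (95% interval 0.10 to 1.03, adjusted p = 0.629). Each gene, hsp-70 included, changed in the same direction in both strains wherever its age change was called. For hsp-60 at t2 over t1 the values were -1.39 in CB4856 and -1.61 in N2, for hsp-3 -1.57 in CB4856 and -1.53 in N2, and for hsp-4 at t3 over t2 0.96 in CB4856 and 1.21 in N2.

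Ordered by level, the conditions fell mostly by age. For hsp-60 the order was CB4856 t1 (12.76 ± 0.18), N2 t1 (12.50 ± 0.45), CB4856 t3 (11.73 ± 0.51), CB4856 t2 (11.37 ± 0.73), N2 t3 (11.08 ± 0.47), and N2 t2 (10.89 ± 0.59), with only the step below N2 t1 larger than the spread (the larger SD of the neighbors). For hsp-3 the same single step stood out, with CB4856 t1 at 12.81 ± 0.40 and N2 t1 at 12.68 ± 0.42 above N2 t3 at 11.60 ± 0.97, CB4856 t3 at 11.50 ± 0.52, CB4856 t2 at 11.24 ± 0.29, and N2 t2 at 11.15 ± 0.44. For hsp-1 and hsp-4 the only such step lay above the t2 worms. For hsp-1, CB4856 t2 (13.97 ± 0.52) stood below N2 t1 (14.69 ± 0.41), and for hsp-4, CB4856 t2 (10.73 ± 0.52) stood below N2 t1 (11.27 ± 0.22).

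For hsp-70 the order was CB4856 t3 (8.44 ± 0.52), N2 t3 (8.35 ± 0.81), N2 t2 (7.44 ± 0.33), CB4856 t2 (6.93 ± 0.19), N2 t1 (6.57 ± 0.26), and CB4856 t1 (6.52 ± 0.16), in which the steps within t3 and within t1 were smaller than the spread. For hsp-90, CB4856 t3 (14.56 ± 0.44) and N2 t3 (14.25 ± 0.17) stood above CB4856 t1 (13.93 ± 0.19), CB4856 t2 (13.88 ± 0.24), N2 t2 (13.63 ± 0.38), and N2 t1 (13.50 ± 0.34), and only the step below N2 t3 was larger than the spread. No step did so for hsp-6, which ranged from CB4856 t3 (12.75 ± 0.31) to N2 t2 (11.68 ± 0.51), or for hsp-110, which ranged from CB4856 t3 (11.59 ± 0.32) to N2 t2 (10.95 ± 0.61).

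Other genes of these folding systems were followed in lists chosen by function, whose counts stand against 18.4% higher and 15.3% lower of all elements at t2 over t1, 9.42% and 10.3% at t3 over t2, and 23.9% and 19.6% at t3 over t1. In the ER, 8 of 24 elements for folding and unfolded protein response genes were called lower and 1 higher at t2 over t1, with a median log2 change of -0.28 against 0.03 for all elements. pdi-2 and pdi-6, which encode protein disulfide isomerases, changed by -1.86 and -1.26, the calcium-binding lectin chaperone gene crt-1 (calreticulin) by -1.35, and T14G8.3, a large Hsp70 relative of the Grp170 type, by -1.19. From t2 to t3, 6 were higher and 1 lower, among them crt-1 at 1.22, pdi-1 at 0.81, and sel-11, a ubiquitin ligase gene of ER-associated degradation, at 0.73, whereas the transcription factor gene atf-4 changed by -1.37. At t3 over t1, 4 were higher and 6 lower (16.7% and 25%, against 23.9% and 19.6% of all elements), with a median of 0.02. The 4 with the smallest p were all lower, namely atf-4 (-2.03), pdi-2 (-2.09), pdi-6 (-1.45), and T14G8.3 (-1.21). The higher ones are not named here. hsp-3 was also lower in old than in juvenile worms.

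Among 26 elements for mitochondrial chaperone, protease, and stress response genes, 6 were lower and 1 higher at t2 over t1 (23.1% and 3.85%, median -0.31). They included Y22D7AL.10, which encodes the Hsp10 partner of HSP-60, at -1.54, the protease gene lonp-1 at -0.97, and hsp-75, the mitochondrial Hsp90, at -0.71, whereas the ubiquitin-like gene ubl-5 changed by 0.61. Between t2 and t3, 7 were higher and 1 lower (26.9% and 3.85%, median 0.36), with lonp-1 at 0.88, another element of hsp-75 at 0.66, the import channel gene timm-23 at 0.56, and ubl-5 at -0.60. At t3 over t1, 4 were higher and 2 lower (15.4% and 7.69%, both below the shares of all elements), with lin-65, a chromatin factor of the mitochondrial stress response, at 0.84 and dve-1, a transcription factor of the same response, at -0.74.

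In the cytosol, 3 of 19 elements for co-chaperones and HSF-1 were higher and 2 lower at t2 over t1 (median 0.02), 2 higher and 1 lower at t3 over t2 (median 0.37), and 6 higher and 0 lower at t3 over t1 (median 0.16). The shares were 15.8% higher and 10.5% lower at t2 over t1 and 10.5% and 5.26% at t3 over t2, close to or below those of all elements, and 31.6% higher at t3 over t1. hsf-1 was 1.13 higher at t3 than at t1, chn-1, the ubiquitin ligase CHIP, 1.70 higher, ddl-1, a partner of HSF-1, 1.1 higher, and dnj-19, a J-domain protein gene, 0.51 higher. fkb-6, which encodes an Hsp90-binding immunophilin, rose by 0.73 at t3 over t2. The called element with the smallest p there, F11F1.1 of the Hsp70 family, changed by -0.78. Of 15 elements for the CCT chaperonin and prefoldin, 3 were lower and 1 higher at t2 over t1, 2 higher and 1 lower at t3 over t2, and 1 higher and 3 lower at t3 over t1.

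The 10 elements for small heat shock proteins, which hold unfolded proteins without ATP, held calls in both directions. At t2 over t1, 2 were higher and 2 lower, close to the shares of all elements, with sip-1 at 2.52 and hsp-12.2 at -2.06. At t3 over t2, 3 were higher and 3 lower (30% each), with hsp-16.41 at 2.0, hsp-12.6 at 1.04 (above background in 1 of 8 channels at t2), hsp-43 at -1.39, and hsp-17 at -1.66. Between the strains, 1 or 0 elements of a chaperone list were called at an age. These were cct-3 (log2 ratio -1.75 at t1), F11F1.1, a Hsp70-family gene (0.59 at t1, above background in 5 of 10 channels), the Hsp70 and Hsp90 co-chaperone gene sti-1 (0.65 at t3), and met-2, a histone methyltransferase gene of the mitochondrial list (-0.57 at t3, above background in 4 of 10 channels).

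**Figure D5:**
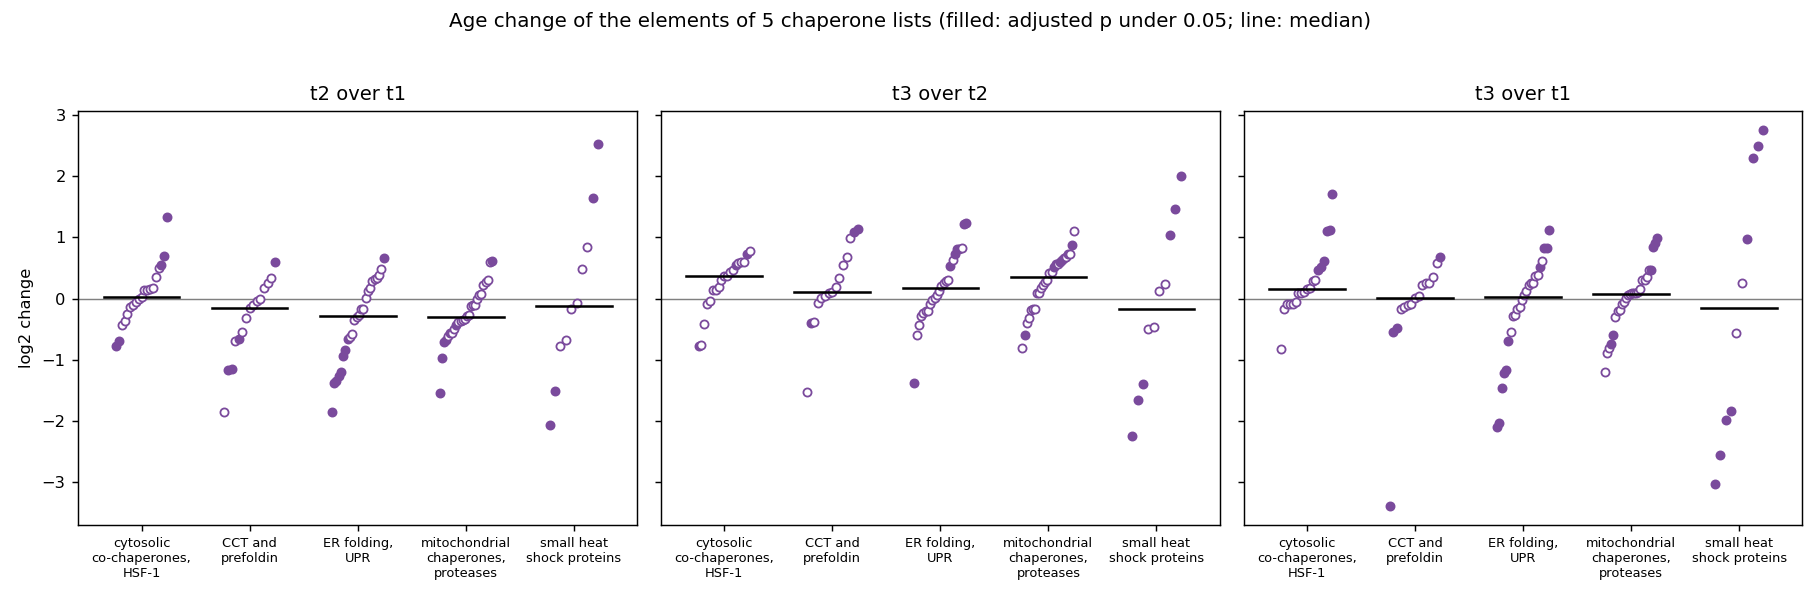
Log2 change (vertical axis) of the elements of 5 chaperone lists at t2 over t1, t3 over t2, and t3 over t1. Each point is an element, filled at an adjusted p under 0.05, and the line is the median of the list. At t2 over t1 the ER and mitochondrial medians lie at -0.28 and -0.31, and the small heat shock proteins spread to both sides at each step.

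The genes whose pattern was most like that of a chaperone were sought over the 28 single channels of the 14 arrays, among 11806 elements above background in 14 or more of them. The channels share arrays and ages, so the correlations are descriptions. Closest to hsp-3 were noah-1 (Pearson r = 0.93), sym-2 (0.93), and pdi-2 (0.92), of which pdi-2 is a folding enzyme of the ER. Closest to hsp-90 was fkb-6 (0.90), and hsp-16.41 was second for hsp-70 (0.94), behind EEED8.2 (0.94). Closest to hsp-60 were clu-1 (0.93), a gene for mitochondrial distribution, and atad-3 (0.92), which encodes a mitochondrial ATPase. For hsp-4 it was ret-1 (0.89), an ER reticulon gene, for hsp-1 ivd-1 (0.85), for hsp-6 elpc-1 (0.87), and for hsp-110 rpl-7A (0.81).

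RNA levels of tissue marker genes moved with age at the same time. Of all elements, 18.4% were called higher and 15.3% lower at t2 over t1, and 9.42% and 10.3% at t3 over t2. At t2 over t1, 16 of 20 elements for oocyte and early embryo genes were higher and 0 lower, 17 of 20 for sperm were lower, 21 of 29 for body wall muscle were lower, and 8 of 10 for cuticle were lower. The mean log2 level of the oocyte list per array ran from 8.72 to 11.08 in CB4856 and 8.76 to 9.98 in N2 at t1, and from 11.71 to 12.15 in CB4856 and 11.32 to 12.29 in N2 at t2, with 19 of its 20 elements above background on some array at each age. At t3 over t2, 13 of 20 sperm elements were higher and 16 of 29 muscle elements lower. Intestine and yolk elements were split at t2 over t1, with 7 of 19 higher and 7 lower. At t3 over t2, 1 of them was higher and 7 were lower. Between the strains, 8 of 29 muscle elements were higher in CB4856 at t3 and 0 at the other ages. Intestine and yolk had 2 of 19 higher at t2 and 3 at t3, sperm 1 of 20 at t2, and cuticle 1 of 10 at t3. Of all elements, 1.08% were higher in CB4856 at t2 and 1.57% at t3. The part of these shifts in the chaperone values was not tested.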

How the data were processed

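CB4856 and N2 RNA was compared on 14 arrays. The intensity values, as deposited, are spot means and median local backgrounds in scanner units that the authors quantified within a fixed circle in ScanArray Express, as the headers state, and that were neither corrected nor normalized. The deposited percent values give the share of saturated pixels in a spot. The authors also deposited a log2 table, the log2 ratio of N2 over CB4856, normalized with limma per the submitters' processing notes. It served only as an alternative, with its sign turned.

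Intensities were processed in R 4.3.3 with limma 3.58.1 and statmod 1.5.0 (normexp, offset 50, loess within arrays, quantile between arrays) and tested in limma fits over all 14 arrays. Symbols came from the platform table, updated by gene ID to WBcel235, and all 8 genes matched. Values are named for the 8 genes in every comparison, for at most 4 called list elements with the smallest p, and for the 3 most correlated genes (fewer are printed). The genes and lists were chosen with earlier results of these data known. The code was tested on simulated data. The number of arrays limits the precision.

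Results were recomputed with no background correction or a normexp offset of 16, without normalization between arrays or with Aquantile, leaving out dim elements, flagged spots, or spots with saturated pixels (the last chosen after seeing the data), and with blocks for replicate number or session, averaged arrays of 1 label number, no dye term, only the compared ages, single-channel models, and each array left out. The flag codes are not explained in the files.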

Additional observations from a re-analysis of the deposited data

Results flagged for a closer look

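Of 72 groups of 4 or 5 arrays examined (the strain ratio and the level in each strain, for each gene and age), 5 held an array far from the rest, and chance gives about 1 in 20. The log2 ratio of hsp-90 was -0.55 on t3 replicate 3, against 0.37 to 0.66 on the others, and its level in CB4856 on that array was 13.79, against 14.65 to 14.83. hsp-110 in N2 was 10.41 on t3 replicate 2, against 11.28 to 11.62. hsp-4 in CB4856 was 11.92 on t1 replicate 3, against 11.28 to 11.31. The log2 ratio of hsp-60 was 1.92 on t2 replicate 2, against -0.08 to 0.05 on the others.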

How the results depend on the processing

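Of 1737 values recomputed for the 8 chaperones, 1709 stayed on their side of the threshold, 9 lost their call, and 19 gained one. The sign turned in 69, of which 0 belonged to a change called in the report. These were 22 strain ratios (7 at t1, 9 at t2, and 6 at t3), 38 changes of a ratio with age, and 9 age changes (3 of hsp-90 at t2 over t1 and 6 of hsp-110 at t3 over t1). Without t2 replicate 2, the t2 ratios of hsp-60, hsp-6, hsp-110, and hsp-4 were -0.04, -0.06, -0.08, and -0.11. In the strain comparisons and their change with age, 0 of 8 were called under each alternative, leaving out single arrays included. At t2 over t1, where 3 were called, 5 were called with only the compared ages, with the replicate block, with the methods' linear model, and with single channels, and 6 with the session as a block, the additions being among hsp-4, hsp-6, hsp-70, and hsp-110. Leaving out single arrays gave 3 to 5. The count for the methods' linear model was taken at an adjusted p under 0.05. At the thresholds that the methods give for age, that model called 0 of 8 at t2 over t1 and at t3 over t2. At t3 over t2, where 5 were called, averaging arrays of the same label number gave 2, and leaving out single arrays 5 to 5. At t3 over t1, where 4 were called, omitting normalization between arrays gave 2 (4 to 4 without single arrays). That setting moved the median of all elements to 0.29 at t3 over t2 and 0.11 at t3 over t1, so that the chaperone changes of 0.99 (hsp-90), 1.30 (hsp-110, called), and 1.29 (hsp-4 at t3 over t1, called) stand against those shifts.

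Between ages, the deviations of same-numbered arrays had correlations of -0.01 to 0.28 for levels and -0.31 to 0.35 for ratios. They were over 0.1 in 4 of 9 pairs each. These mixed values do not settle whether the numbers pair samples across ages, and no pairing was assumed. Whether same-numbered arrays within an age share RNA was not tested. With the replicate block, hsp-4 and hsp-6 at t2 over t1 gained a call (adjusted p = 0.0167 and 0.0408), and no other chaperone call changed.

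Counts over all elements moved more. The dim filter also left fewer elements to test, so its lower counts need not be lower shares of the elements tested. Those shares were not computed. For the strain difference at t1 (597 called) the counts were 384 with the dim filter, 180 with only flag code 3, and 164 with only the compared ages. They were 263 with averaged arrays, 365 from the authors' table, and 149 with the methods' model. At t2 (593) they were 326, 124, and 88 with the dim filter, flag code, and compared ages, 280 from the authors' table, 102 with the methods' model, and 340 both without normalization between arrays and with Aquantile. At t3 (769) the last 2 gave 1391, and the dim filter gave 497, the flag code 200, the compared ages 357, averaging 290, the values deposited by the authors 1594, and the methods' model 168. For the change from t1 to t2 (165) they were 86 without normalization between arrays and with Aquantile, 88 with the dim filter and with the compared ages, 19 with the flag code, 58 with averaging, and 379 by physiological age. From t2 to t3 (42) they were 26, 17, and 1 with no normalization between arrays or Aquantile, the dim filter, and the flag code, 17 with the session block, 0 with averaging, 150 from the authors' table, and 147 by physiological age. For age, no normalization between arrays gave 3810 (t2 over t1, 7584 in the report's fit) and 6964 (t3 over t2, 4441), the flag code 1831, 1269, and 3119 (t3 over t1, 9791), and averaging 2440 (t3 over t2). Leaving out single arrays gave 379 to 892, 334 to 658, and 363 to 969 for the strain difference at t1, t2, and t3, 93 to 217 and 11 to 50 for its changes, and 6920 to 7951, 3274 to 5022, and 9212 to 9782 for t2 over t1, t3 over t2, and t3 over t1.

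The share of calls that were higher was 39.0% against 54.6% (t2 over t1), 95.5% against 47.7% (t3 over t2), and 80.3% against 54.9% (t3 over t1) without normalization between arrays, and 38.5% against 64.3% for the change from t2 to t3 without it or with Aquantile. The causes of these shifts were not tested. Weak spots limit hsp-70, which with only flag code 3 could be tested for the strain difference at t3 alone.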
